A study of Arabidopsis thaliana with 32 samples.

Results

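The cuticular wax and long-chain lipid genes described here are 10 named genes of Arabidopsis thaliana out of the 34262 in the transcript table. They were taken by gene identifier: KCS1 (AT1G01120), KCS6 (AT1G68530), CER2 (AT4G24510), CER1 (AT1G02205), CER3 (AT5G57800), MAH1 (AT1G57750), CER4 (AT4G33790), LACS2 (AT1G49430), ADS1 (AT1G06080) and MYB96 (AT5G62470). They were chosen by name with the RPKM values and m6A peaks of these same libraries already known, so the values below are a description and their calls lend no independent support to a pattern. Of the 10 genes, 8 had a mean of at least 1 RPKM (the authors' read counts scaled to transcript length and library size) over the 12 RNA-seq libraries and were tested, among 18072 genes in all. CER1 passed that filter through the mutant line, since its wild-type means lay just under 1 RPKM. CER4 and MAH1 did not pass it.

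Transcripts were measured in whole seedlings, 15 days old, in 4 groups of 3 libraries: wild type with mock, wild type with 50 µM NAA (a synthetic auxin) for 3 h, and the line fip37 LEC1:FIP37 with the same mock or NAA treatment. That line is named for a mutation in FIP37, a subunit of the complex that writes the RNA mark m6A, and carries FIP37 behind the LEC1 promoter, which is known for activity in embryos. Peaks of m6A came from wild type with mock or NAA, from tmk4-1 with NAA (a line named for TMK4, a kinase of the plasma membrane that acts in auxin signalling), and from 35S:FIP37 and 35S:FIP373A, lines named for FIP37 and a variant of it behind the broadly active 35S promoter, for which the labels state no treatment. The m6A groups had 2 immunoprecipitates and 2 inputs each. The labels do not say that replicates came from separate cultures, so p-values measure the spread between these libraries.

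Read totals are not part of the transcript table, but its low values move in steps of whole reads, by which depth ranged from 83.6% to 152% of that of wild-type mock replicate 1. FIP37 (AT3G54170) itself had a mean of 11.6 RPKM (SD 0.622, n = 3) in wild-type mock and of 79.0 RPKM (SD 18.4) in mock libraries with the fip37 LEC1:FIP37 label, and means of 18.5 and 87.5 RPKM (SD 6.35 and 31.0) with NAA. The targeted gene was thus higher in the libraries labelled as mutant; reads of the transgene and of the original locus cannot be told apart here, and each genotype difference below is between libraries as labelled. Among the wild-type NAA libraries, replicate 3 differed by 2-fold or more from its group's other libraries in 1711 tested genes, against 358 and 321 for replicates 1 and 2.

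Cuticular wax is made in epidermal cells from fatty acids that the fatty acid elongase complex extends to very-long-chain acyl-CoAs. The condensing enzyme of that complex, 3-ketoacyl-CoA synthase (KCS), sets which chains are made, and the products leave through an alkane-forming branch or an alcohol-forming branch before they are exported to the surface. The same long acyl chains feed other lipids, suberin in roots and membrane lipids among them, while cutin, the polyester under the wax, is built from shorter chains.

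By mean level in wild-type mock the order was KCS6 at 117 RPKM, KCS1 at 71.7, CER2 at 54.9, MYB96 at 34.9, ADS1 at 23.9, CER3 at 18.0, LACS2 at 9.41, CER1 at 0.956, CER4 at 0.0382 and MAH1 at 0. RPKM values are per length, so these levels can be set beside each other; of the neighbours in this order only ADS1 and CER3 had overlapping libraries. In fip37 LEC1:FIP37 mock KCS6 remained first with 98.6 RPKM, and CER2 (21.1), KCS1 (20.2), CER3 (16.8) and MYB96 (13.3) followed with overlapping neighbours. LACS2 (4.21), CER1 (2.31) and ADS1 (1.90) came last of the tested genes, and the last pair overlapped. With NAA the wild-type order was KCS6 (118 RPKM), KCS1 (96.0), CER2 (65.6), MYB96 (48.7), CER3 (29.7), LACS2 (12.8), ADS1 (6.12) and CER1 (0.967), in which MYB96 overlapped CER3, CER3 overlapped LACS2 and LACS2 overlapped ADS1. In fip37 LEC1:FIP37 NAA it was KCS6 (121), CER2 (39.8), KCS1 (24.8), CER3 (21.5), MYB96 (17.1), LACS2 (6.01), CER1 (2.99) and ADS1 (2.71), in which KCS1 overlapped CER3, CER3 overlapped MYB96 and CER1 overlapped ADS1. KCS6 was thus first in all 4 groups, and ADS1 moved from the fifth place in wild-type mock to the last of the tested genes in both fip37 LEC1:FIP37 groups.

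**Figure D1:**
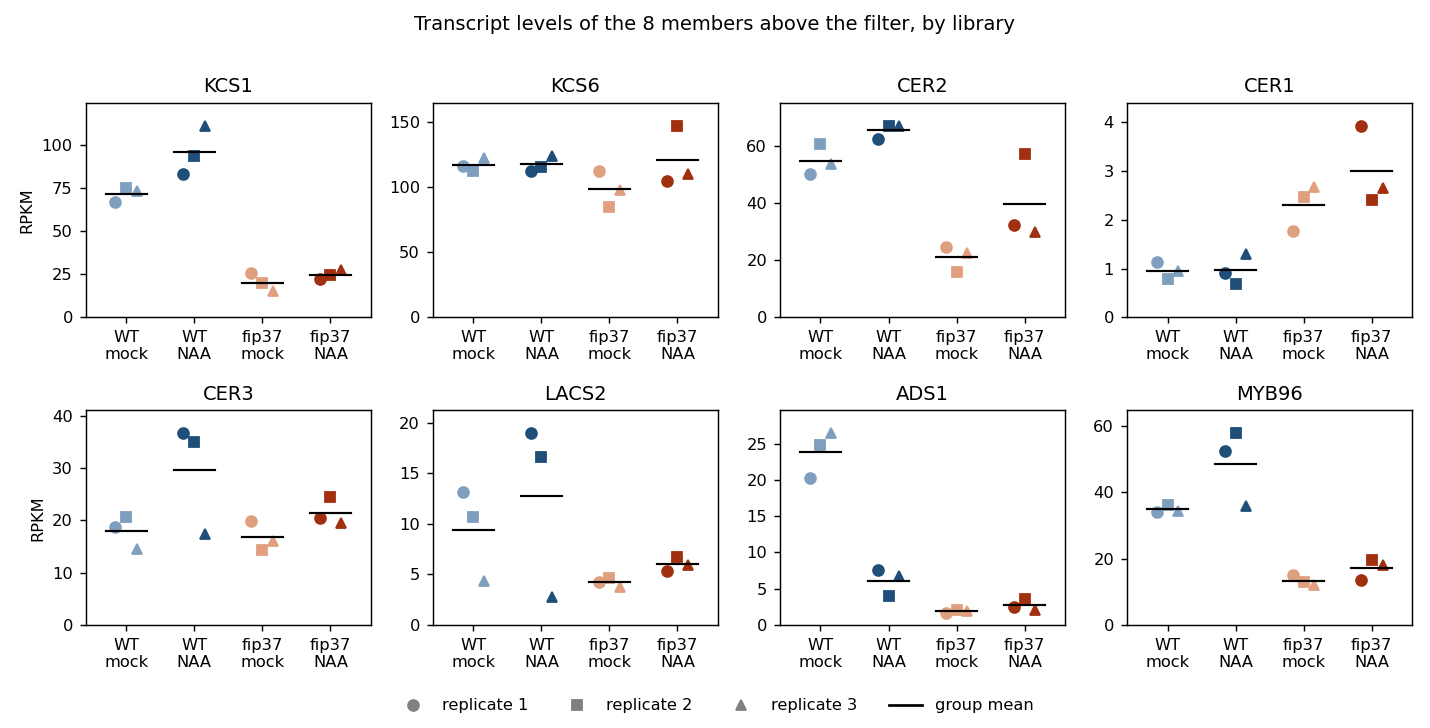
RPKM (y axes, linear, from 0) of the 8 tested wax and long-chain lipid genes in the 12 RNA-seq libraries, by group (x axes; fip37 stands for fip37 LEC1:FIP37). Symbols are replicates and lines are group means. In every fip37 LEC1:FIP37 library KCS1, CER2, ADS1 and MYB96 are lower, and CER1 higher, than in every wild-type library of the same treatment. KCS6 stays between 85.2 and 147 RPKM. The share of all tested genes that separate in this way was not counted. Between genotypes 38.8% of all tested genes were called with mock and 43.8% with NAA.

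Among the condensing enzymes, KCS1, a KCS with a broad role in very-long-chain fatty acid synthesis, stood at 67.2, 74.9 and 73.0 RPKM in wild-type mock and at 25.6, 19.7 and 15.4 RPKM in fip37 LEC1:FIP37 mock. With NAA it stood at 83.3, 93.8 and 111 RPKM in wild type and at 22.6, 24.5 and 27.3 RPKM in fip37 LEC1:FIP37. Every mutant-line library was thus below every wild-type library, and the ratio of the means was 0.282 with mock and 0.258 with NAA. How many of all tested genes separate without overlap, here and for the members below, was not counted. In the limma fit over all tested genes KCS1 was lower in fip37 LEC1:FIP37 by a log2 fold change of -1.80 with mock (SE 0.17, adjusted p = 1.43e-05) and -1.91 with NAA (SE 0.17, adjusted p = 6.35e-06). The wild-type NAA libraries all lay above the mock libraries, but the log2 fold change of 0.41 (SE 0.17, adjusted p = 0.156) did not pass the threshold.

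KCS6, also known as CER6 and the main KCS of epidermal wax, showed no such gap. It stood at 116, 113 and 123 RPKM in wild-type mock, at 113, 116 and 124 in wild-type NAA, at 113, 85.2 and 97.96 in fip37 LEC1:FIP37 mock, and at 105, 147 and 110 in fip37 LEC1:FIP37 NAA. The mock groups barely separated and the NAA groups overlapped. The log2 fold change between genotypes was -0.26 with mock (SE 0.14, adjusted p = 0.173) and 0.02 with NAA (SE 0.14, adjusted p = 0.914), and NAA moved it by 0.01 in wild type (SE 0.14) and 0.28 in fip37 LEC1:FIP37 (SE 0.14), neither called. These errors leave room for modest changes in either direction.

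CER2, a BAHD-type protein that acts with KCS6 to extend acyl chains to wax length, stood at 50.4, 60.7 and 53.8 RPKM in wild-type mock and at 24.6, 16.0 and 22.6 RPKM in fip37 LEC1:FIP37 mock. With NAA the values were 62.4, 67.1 and 67.1 RPKM in wild type and 32.5, 57.2 and 29.9 RPKM in fip37 LEC1:FIP37, where the second library lay near wild type. CER2 was lower in fip37 LEC1:FIP37 with mock (log2 fold change -1.36, SE 0.22, adjusted p = 0.0005) and with NAA (-0.76, SE 0.22, adjusted p = 0.0137). The NAA call ended without fip37 LEC1:FIP37 NAA replicate 1 (adjusted p = 0.0547) and without replicate 3 (adjusted p = 0.0650). All 3 fip37 LEC1:FIP37 NAA libraries were above the mock libraries of that line, and this log2 fold change of 0.85 (SE 0.22, unadjusted p = 0.00211) was not called over all genes (adjusted p = 0.171, limma). In the annotation the CER2 locus overlaps AT4G24520 at one end, and the sources used here do not say whether strand was used in counting.

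In the alkane branch CER1 and CER3 act together to turn very-long-chain acyl-CoAs into alkanes. CER1 was at a trace in wild type, with 1.14, 0.777 and 0.952 RPKM in mock and 0.911, 0.688 and 1.301 RPKM with NAA. In fip37 LEC1:FIP37 it stood at 1.77, 2.47 and 2.68 RPKM in mock and at 3.92, 2.41 and 2.65 RPKM with NAA, above every wild-type library. The ratio of the means was 2.41 with mock and 3.10 with NAA. On the log2(RPKM + 1) scale, which understates changes of such low genes, CER1 was higher by 0.75 with mock (SE 0.18, adjusted p = 0.00608) and by 1.01 with NAA (SE 0.18, adjusted p = 0.000802). It was the one member called higher between genotypes. CER1 passed the filter through the fip37 LEC1:FIP37 libraries, where it was high, so this call is a description only.

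CER3 stood at 18.8, 20.8 and 14.5 RPKM in wild-type mock and at 19.97, 14.3 and 16.2 RPKM in fip37 LEC1:FIP37 mock, so these groups overlapped (log2 fold change -0.09, SE 0.25, adjusted p = 0.791). With NAA it stood at 36.7, 35.1 and 17.5 RPKM in wild type and at 20.4, 24.4 and 19.5 RPKM in fip37 LEC1:FIP37. Wild-type NAA replicates 1 and 2 lay above every mock library and replicate 3 did not. NAA moved CER3 in wild type by 0.64 on the log2 scale over all 3 libraries (SE 0.25, adjusted p = 0.131, limma). Without wild-type NAA replicate 3 it was 0.97, a call (adjusted p = 0.00216, limma). Single left-out libraries gave 0.456 to 0.969. The share of all tested genes called also rose without replicate 3, from 8.35% to 22.8%. The genotype difference with NAA was -0.39 (SE 0.25, adjusted p = 0.217, limma). It was -0.72 without that replicate (adjusted p = 0.00352, limma), where the all-gene share went from 43.8% to 50.4%.

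MAH1, a cytochrome P450 that oxidises alkanes to secondary alcohols and ketones and is known from stems, was listed at 0 RPKM in all libraries except the second fip37 LEC1:FIP37 mock library, at 0.0691 RPKM. CER4, the acyl-CoA reductase that makes the primary alcohols of wax, lay between 0.0220 and 0.138 RPKM; its values fell on whole multiples, 1 to 7, of 1 read's worth within 0.02 reads. Neither level can be compared between groups at this depth. The highest CER4 value was that of wild-type NAA replicate 3.

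ADS1, a desaturase-family enzyme that places a double bond in long acyl chains, was the one member with a called NAA response. In wild type it stood at 20.3, 24.8 and 26.4 RPKM with mock and at 7.55, 3.97 and 6.82 RPKM with NAA. In fip37 LEC1:FIP37 it stood at 1.72, 2.08 and 1.90 RPKM with mock and at 2.52, 3.59 and 2.02 RPKM with NAA. The fip37 LEC1:FIP37 libraries of both treatments were thus below every wild-type NAA library, and the mock mean was 0.0797 of that of wild type. ADS1 fell with NAA in wild type by 1.83 on the log2 scale (SE 0.21, adjusted p = 0.000351), beside a log2 fold change of 0.33 in fip37 LEC1:FIP37 (SE 0.21, adjusted p = 0.806). The difference between these NAA effects was 2.17 (SE 0.30, adjusted p = 0.00648, limma). From the mock mean of 1.90 RPKM in fip37 LEC1:FIP37, a fall of 1.83 is not possible on the log2(RPKM + 1) scale. The low mock level of that line thus limits what this difference can say about the NAA response. Beside the wild-type fall, all 5 root markers of a fixed list had NAA log2 fold changes below 0 in wild type (median -0.996, 2 of them called). Of the other marker lists, 0 of 3 epidermis markers (median -0.24) and 1 of 4 leaf markers (median -0.11) were above 0 there, none called. In fip37 LEC1:FIP37 0 of 5 root markers were above 0 with NAA (median -0.35), none called. The part of tissue make-up was not tested. Between genotypes ADS1 was lower, with log2 fold changes of -3.09 with mock (SE 0.21, adjusted p = 2.45e-06) and -0.92 with NAA (SE 0.21, adjusted p = 0.00383). Both NAA effects and both genotype differences use the same 12 libraries, so they are not separate observations of ADS1.

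LACS2, a long-chain acyl-CoA synthetase that activates fatty acids for cutin, had widely spread wild-type libraries. It stood at 13.2, 10.7 and 4.33 RPKM with mock and at 18.9, 16.6 and 2.76 RPKM with NAA, replicate 3 being lowest in both groups. In fip37 LEC1:FIP37 it stood at 4.28, 4.62 and 3.71 RPKM with mock and at 5.39, 6.71 and 5.93 RPKM with NAA. The log2 fold change between genotypes was -0.89 with mock (SE 0.52, adjusted p = 0.200) and -0.65 with NAA (SE 0.52, adjusted p = 0.332), neither called. With replicate 3 of both wild-type groups left out, a choice made after seeing the data, these values were -1.31 (adjusted p = 6.18e-05) and -1.42 (adjusted p = 2.19e-05), and the NAA effect in wild type went from 0.19 (adjusted p = 0.863) to 0.54 (adjusted p = 0.0447).

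MYB96, a transcription factor that activates wax genes under drought and abscisic acid, stood at 34.0, 36.1 and 34.5 RPKM in wild-type mock and at 15.0, 13.1 and 11.97 RPKM in fip37 LEC1:FIP37 mock. With NAA it stood at 52.6, 57.8 and 35.8 RPKM in wild type and at 13.5, 19.5 and 18.2 RPKM in fip37 LEC1:FIP37. All mutant-line libraries were below all wild-type libraries, and MYB96 was lower with mock (log2 fold change -1.33, SE 0.18, adjusted p = 0.000164) and with NAA (-1.45, SE 0.18, adjusted p = 6.92e-05). Wild-type NAA replicates 1 and 2 were above every mock library, while replicate 3 lay within the mock range. NAA moved MYB96 in wild type by 0.44 (log2, SE 0.18, adjusted p = 0.152, limma), and by 0.65 without replicate 3 (adjusted p = 0.00952, limma). Single left-out libraries gave 0.307 to 0.645. Without replicate 3 the share of all tested genes called also rose, from 8.35% to 22.8%.

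**Figure D2:**
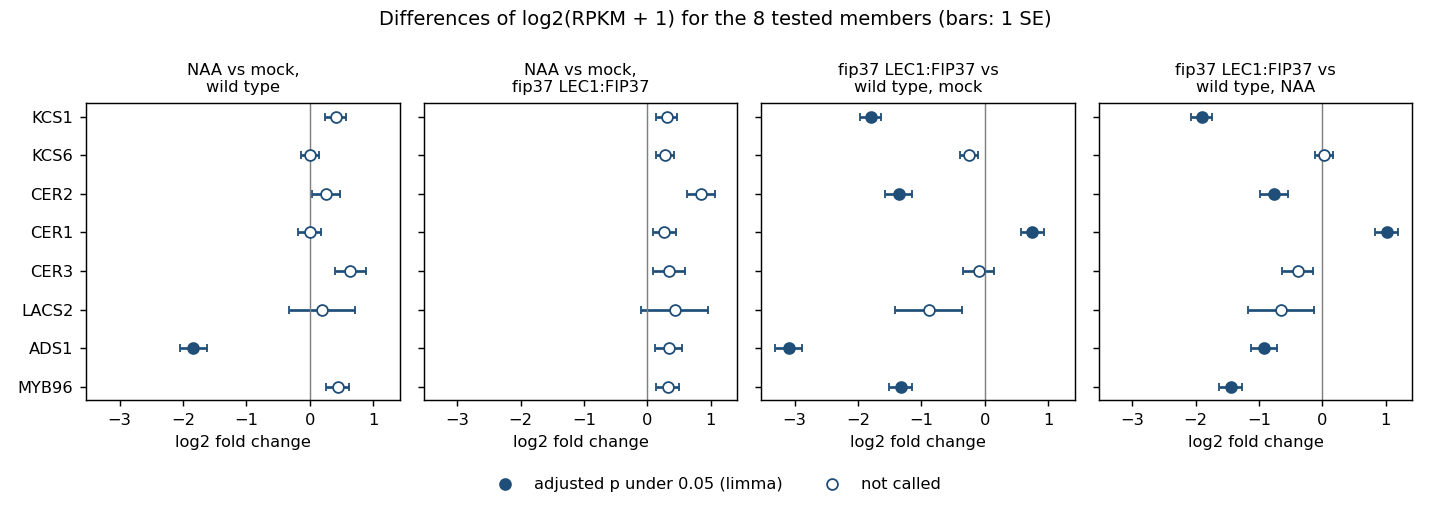
Log2 fold changes (x axes, differences of mean log2(RPKM + 1) with 1 SE) of the 8 tested wax and long-chain lipid genes (y axes) in the 4 comparisons. Filled points passed the limma threshold of adjusted p under 0.05; with NAA in wild type only ADS1 did, at -1.83, and between genotypes KCS1, CER2, ADS1 and MYB96 were lower and CER1 higher with either treatment.

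Counted together, 1 of the 8 tested genes was called with NAA in wild type, ADS1, against 8.35% of all tested genes. Over all genes this comparison had 605 higher and 904 lower calls, a split that turned to 872 and 683 under median-ratio scaling. None of the 8 was called with NAA in fip37 LEC1:FIP37, against 0.437% of all genes with limma; at an unadjusted p under 0.05 there was 1, CER2, against 8.31% of all genes. Between genotypes 5 of 8 were called with mock, against 38.8% of all genes, and 5 of 8 with NAA, against 43.8%. In both comparisons 4 of the 8 were lower (background 23.5% and 24.6%) and 1 was higher (15.3% and 19.2%). The higher one was CER1, which passed the filter through fip37 LEC1:FIP37. The difference of the NAA effects was called for 1 of 8, ADS1, against 1.69% of all genes (115 higher and 191 lower, and 257 and 236 under quantile normalization). Without wild-type NAA replicate 3 the count with NAA in wild type was 4, against 22.8% of all genes (1943 higher and 2176 lower), and that between genotypes with NAA was 7, against 50.4%. The difference of the NAA effects was then called for 12.3% of all genes (1060 higher and 1171 lower). Over single left-out libraries the all-gene share ran from 2.64% to 22.8% with NAA in wild type, lowest without wild-type mock replicate 3, from 0.172% to 1.11% with NAA in fip37 LEC1:FIP37, lowest without its mock replicate 2, and from 0.376% to 12.3% for the difference of the NAA effects, lowest without wild-type mock replicate 3; each was highest without wild-type NAA replicate 3. The median log2 fold change of the 8 between genotypes was -1.11 with mock and -0.71 with NAA, beside -0.07 and -0.05 over all tested genes. The genes were chosen with such values in view, so nothing further is read from these counts.

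Other genes of the same pathways were taken from 9 lists of 76 genes, of which 58 were tested. They too were drawn up with earlier results of these data known. Between genotypes 30 of the 58 were lower and 4 higher with mock, and 25 were lower and 6 higher with NAA. Over all tested genes 23.5% were lower and 15.3% higher with mock, and 24.6% and 19.2% with NAA. These shares also stand beside the counts of each list below. The median log2 fold change of the 58 was -0.48 with mock and -0.37 with NAA, beside -0.07 and -0.05 over all tested genes. Of the genotype calls in the lists, 1 lower and 1 higher with mock and 2 lower and 1 higher with NAA passed the filter through 1 genotype. Those genes had a mean under 1 RPKM in the other genotype. With NAA in wild type 3 were higher and 5 lower, which went from 2 calls in all without wild-type mock replicate 3 to 17 without wild-type NAA replicate 3 (4, 4 and 5 without wild-type mock replicate 1, mock replicate 2 or NAA replicate 2), and with NAA in fip37 LEC1:FIP37 0 of 58 were called (limma).

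The other KCS genes are the family of KCS1 and KCS6. All 13 that were tested of 19 listed were lower in fip37 LEC1:FIP37 with mock (all tested genes 23.5%), at a median log2 fold change of -0.76. With NAA 8 of 13 were lower (all tested genes 24.6%), at a median of -0.42. KCS5, a close relative of KCS6, went from 25.1 ± 0.799 to 5.98 ± 1.02 RPKM with mock (means ± SD, n = 3; log2 fold change -1.91, SE 0.17, adjusted p = 9.13e-06). KCS12 had a mock log2 fold change of -1.71 (SE 0.47, adjusted p = 0.0133; 0.0506 without wild-type mock replicate 1 and 0.0517 without replicate 2) and KCS19 of -1.28 (SE 0.24, adjusted p = 0.00155). With NAA KCS12 (-2.28), KCS5 (-1.81) and KCS20 (-1.47) had the 3 largest called differences, and KCS20, which acts in root suberin and wax, went from 170 ± 5.63 to 60.7 ± 3.06 RPKM. How reads shared by close relatives such as KCS5 and KCS6 were counted is not given, so values of such pairs are uncertain to that extent.

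The make-up of the KCS transcripts differed accordingly. The summed RPKM of the 21 KCS genes was 618, 645 and 634 in wild-type mock and 350, 286 and 301 in fip37 LEC1:FIP37 mock. KCS6 made up 18.8%, 17.5% and 19.3% of that sum in wild-type mock and 32.2%, 29.7% and 32.6% in fip37 LEC1:FIP37 mock. With NAA its share was 15.6%, 15.8% and 19.3% in wild type and 30.4%, 35.5% and 32.9% in fip37 LEC1:FIP37. The genotypes did not overlap in this share with either treatment. KCS1 went the other way, from between 10.9% and 11.6% of the sum in wild-type mock to between 5.11% and 7.31% in fip37 LEC1:FIP37 mock. These shares restate the levels above, and the difference between KCS6 and the other KCS genes was not tested.

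**Figure D3:**
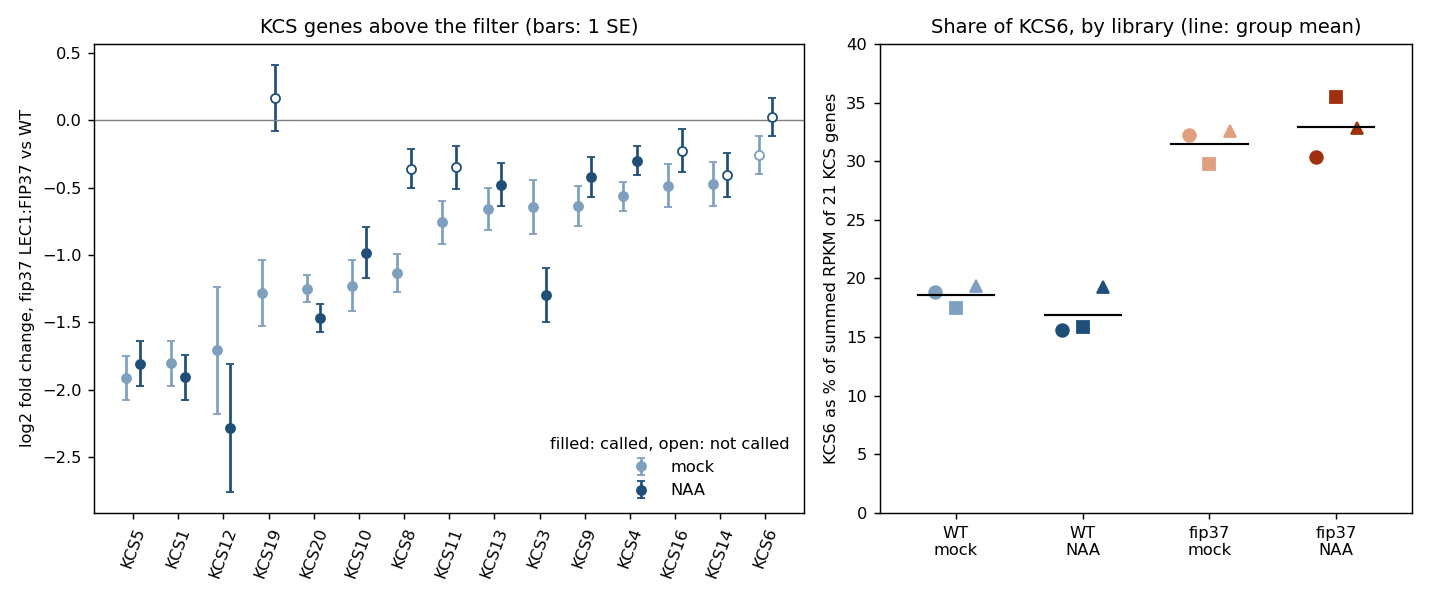
Left, log2 fold changes (y axis, 1 SE) of the KCS genes above the filter between fip37 LEC1:FIP37 and wild type, with mock in light and NAA in dark blue, filled where called by limma; KCS6 is at the right end, at -0.26 and 0.02. Right, KCS6 as a percentage of the summed RPKM of 21 KCS genes in each library (symbols are replicates, lines are means), from 15.6% to 19.3% in wild type and from 29.7% to 35.5% in fip37 LEC1:FIP37.

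Of the other subunits of the elongase and its partners, 3 of 7 were lower with mock: PAS2, the dehydratase (log2 fold change -0.77, SE 0.13, adjusted p = 0.000786), KCR1, the ketoacyl reductase (-0.62, SE 0.11, adjusted p = 0.000867), and CER10, the enoyl reductase (-0.49, SE 0.12, adjusted p = 0.00837). With NAA KCR1 (-0.51) was lower by a call that ended under quantile normalization (-0.27, adjusted p = 0.0576), PAS2 (-0.36) was lower by a call that ended in 11 of 12 cases of a left-out library (adjusted p up to 0.160) and under that normalization (-0.13, adjusted p = 0.424), and CER26, a relative of CER2, was higher (1.03, SE 0.16, adjusted p = 0.000399). CER26 stood at 13.0 ± 2.97 RPKM in wild-type NAA and at 27.4 ± 4.47 RPKM in fip37 LEC1:FIP37 NAA.

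Among other wax synthesis genes 3 of 6 were tested. FAR1, a fatty acyl reductase that makes alcohols found in suberin, went from 110 ± 12.1 to 10.8 ± 3.54 RPKM with mock (log2 fold change -3.27, SE 0.21, adjusted p = 1.65e-06) and from 89.6 ± 14.3 to 13.4 ± 1.80 RPKM with NAA (-2.64, SE 0.21, adjusted p = 3.28e-06). It belongs to the same enzyme family as CER4, and neither of the other tested genes of the list was called.

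None of the 4 desaturase relatives of ADS1 that were tested was called lower between genotypes. Of these, 2 were higher in fip37 LEC1:FIP37 with mock, ADS4 (log2 fold change 1.26, SE 0.19, adjusted p = 0.000306) and ADS2 (0.52, SE 0.18, adjusted p = 0.0391), and with NAA ADS4 (1.91, SE 0.19, adjusted p = 1.36e-05) and FAD5 (0.39, SE 0.14, adjusted p = 0.0406) were higher. ADS4, which passed the filter through the fip37 LEC1:FIP37 libraries, stood at 0.958 ± 0.151 RPKM in wild-type mock and at 3.71 ± 0.721 RPKM in fip37 LEC1:FIP37 mock. With NAA in wild type FAD5, a plastid desaturase, fell by 0.66 on the log2 scale (SE 0.14, adjusted p = 0.0147). Of the 6 LACS relatives of LACS2, LACS7 was higher with mock (0.40, SE 0.13, adjusted p = 0.0277) and LACS4 lower with NAA (-0.93, SE 0.18, adjusted p = 0.00151). With NAA in wild type LACS7 rose by 0.57 (SE 0.13, adjusted p = 0.0199). Leaving out single libraries ended the ADS2 call in 6 of 12 cases (adjusted p up to 0.135), the FAD5 calls in 9 of 12 between genotypes (up to 0.105) and 3 of 12 with NAA in wild type (up to 0.0622), and the LACS7 calls in 6 of 12 with mock (up to 0.0991) and 5 of 12 with NAA in wild type (up to 0.0825).

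Cutin genes were lower in 6 of 10 (all tested genes 23.5%) and higher in 1 of 10 (15.3%) with mock. With NAA 6 were lower (24.6%) and 3 higher (19.2%). The lower counts include CYP86A4, a relative of CYP86A2, which passed the filter through wild type, at 2.099 RPKM with mock and 3.27 RPKM with NAA beside 0.555 and 0.752 RPKM in fip37 LEC1:FIP37 (log2 fold change with NAA -1.24, adjusted p = 0.00116). CYP86A2, a fatty acid hydroxylase, had a log2 fold change of -1.56 with mock (SE 0.28, adjusted p = 0.000926) and -1.55 with NAA (SE 0.28, adjusted p = 0.000802), and GPAT8, an acyltransferase of cutin monomers, one of -1.30 with mock (SE 0.18, adjusted p = 0.000187). LTL1, a GDSL-type lipase, was higher, at 18.3 ± 1.53 against 8.40 ± 0.978 RPKM with mock and at 25.2 ± 3.88 against 4.995 ± 0.364 RPKM with NAA (log2 fold changes 1.04 and 2.12). In wild type NAA lowered LTL1 (-0.65, SE 0.14, adjusted p = 0.0139) and HTH, an oxidoreductase needed for separate organ surfaces (-0.74, SE 0.13, adjusted p = 0.00670). The LTL1 call with NAA ended without wild-type mock replicate 1 (adjusted p = 0.0659) or replicate 3 (0.0733).

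In suberin 1 of 3 was lower with mock, CYP86A1 (-1.01, SE 0.22, adjusted p = 0.00391), and 2 of 3 with NAA, CYP86A1 (-1.19) and GPAT5 (-1.08), which passed the filter through wild type (2.57 RPKM beside 0.698 RPKM with NAA). In lipid export 3 of 5 were lower with mock, LTPG2 (-0.82), ABCG11 (-0.57) and LTPG1 (-0.51), and 1 with NAA, LTPG2 (-0.78). The LTPG1 call ended in 4 of 12 cases of a left-out library (adjusted p up to 0.0809) and under quantile normalization (0.0989). Of 7 cuticle regulators 3 were lower with mock. MYB16, a regulator of cutin genes, had -1.11 (SE 0.15, adjusted p = 0.000173), CER9, an E3 ubiquitin ligase, -0.79 (SE 0.10, adjusted p = 0.000115), and MYB94, the close partner of MYB96, -0.72 (SE 0.15, adjusted p = 0.00259). With NAA 4 of the 7 were lower, the largest differences being those of CER9 (-0.86), MYB16 (-0.66) and MYB94 (-0.66). With NAA in wild type 1 of the 7 rose, MYB30, an activator of very-long-chain fatty acid genes (0.97, SE 0.16, adjusted p = 0.00354), from 10.5 ± 0.616 to 21.9 ± 4.82 RPKM.

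In the KCS list the NAA calls in wild type were KCS19 (-1.27, SE 0.24, adjusted p = 0.00941), KCS8 (-0.52, SE 0.14, adjusted p = 0.0420) and KCS20 (0.37, SE 0.10, adjusted p = 0.0431), in both directions. Leaving out single libraries ended the KCS20 call in 9 of 12 cases (adjusted p up to 0.164) and the KCS8 call in 6 of 12 (up to 0.165), and that of KCS19 without wild-type mock replicate 3 (0.0518). A fit of the compared groups alone ended the calls of KCS8 (adjusted p = 0.0663), KCS20 (0.0991) and KCS19 (0.0676). A replicate block ended those of KCS8 (0.0672) and KCS20 (0.0743). The KCS8 call also ended under median-ratio scaling (0.0759) and with replicate 3 of both wild-type groups left out (0.0832).

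**Figure D4:**
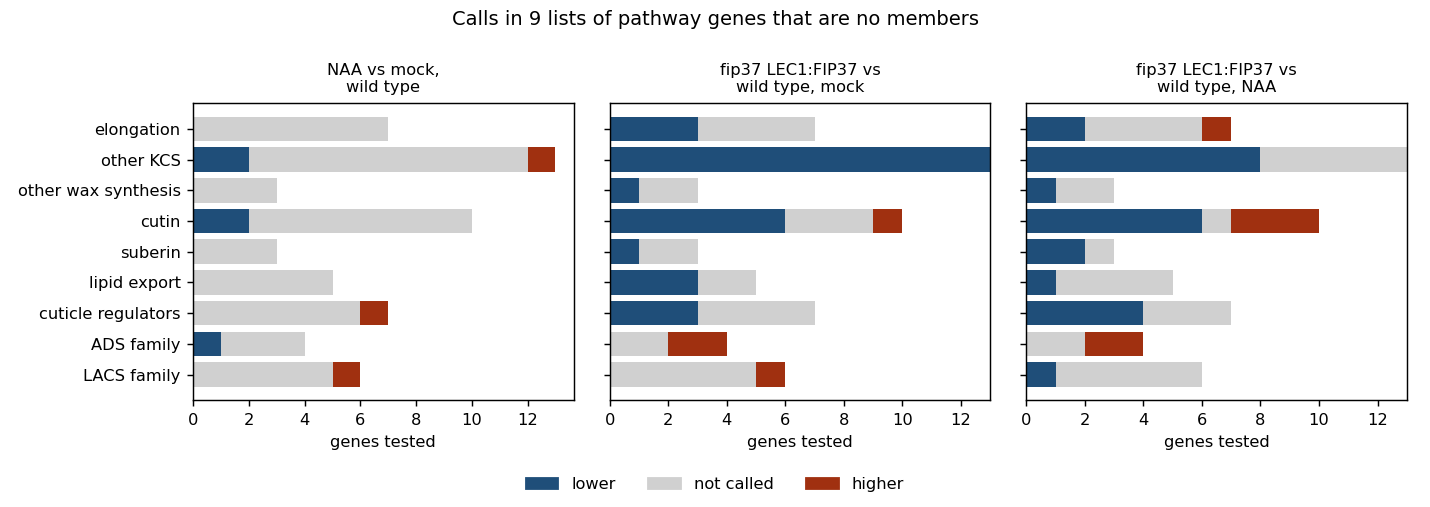
Number of tested genes (x axes) called lower, called higher or not called (limma, adjusted p under 0.05) in each of 9 lists of pathway genes, for NAA in wild type and for fip37 LEC1:FIP37 against wild type with mock or NAA. The 13 other KCS genes were all lower with mock, while the ADS list had 2 higher and 0 lower calls with either treatment. Over all tested genes 23.5% were lower and 15.3% higher with mock, and 24.6% and 19.2% with NAA.

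Wax genes are expressed in the epidermis, and in whole seedlings fewer cells of a type and less RNA per cell cannot be told apart. Of 3 epidermis markers, ATML1 (log2 fold change -1.01, SE 0.14, adjusted p = 0.000242) and PDF2 (-0.86, SE 0.17, adjusted p = 0.00174) were lower in fip37 LEC1:FIP37 with mock, while PDF1 had a difference of 0.69 that was not called (SE 0.26, adjusted p = 0.0503). With NAA the first pair was lower (-0.78 and -0.53) and PDF1 was higher (1.65). Their summed level was 114 to 164 RPKM in wild-type mock and 140 to 209 RPKM in fip37 LEC1:FIP37 mock, and with NAA 86.9 to 141 and 235 to 273 RPKM. Most of that sum was PDF1, with means of 101 and 163 RPKM in the mock groups, where ATML1 went from 17.2 to 8.15 RPKM and PDF2 from 13.3 to 6.88 RPKM.

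Of 4 leaf markers 3 were higher in fip37 LEC1:FIP37 with either treatment, RCA, RBCS1A and LHCB2.1, and their sum was 23854 to 25733 RPKM in wild-type mock, 28834 to 36333 RPKM in fip37 LEC1:FIP37 mock, and 18927 to 20331 and 29530 to 33832 RPKM with NAA. Under quantile normalization LHCB2.1 lost its call with mock (adjusted p = 0.0505) and NAA (0.0560) and RBCS1A with NAA (0.115), and with no filter on low values RBCS1A lost it with both (0.107 and 0.0953). Of 5 root markers 3 were lower with mock, CASP1 (-2.89), COBL9 (-0.81) and SCR (-0.39), and 1 was higher, PYK10 (1.14); with NAA CASP1 was lower (-1.90) and PYK10 higher (1.51). COBL9 passed the filter through wild-type mock, at 2.29 RPKM beside means of 0.471 to 0.966 RPKM in the other groups, and its mock call ended in 3 of 12 cases of a left-out library (adjusted p up to 0.0691) and at a pseudocount of 0.1 (0.0563). With NAA the genotype calls of PDF2 and CASP1 ended in 4 and 3 of 12 such cases (adjusted p up to 0.0920 and 0.0782). The sum of the root markers was 449 to 527 RPKM in wild-type mock and 852 to 1252 RPKM in fip37 LEC1:FIP37 mock, and with NAA 267 to 336 and 738 to 821 RPKM, most of it PYK10, with means of 442 and 986 RPKM in the mock groups. With NAA in wild type no epidermis or leaf marker was called (limma), and COBL9 (-1.12, adjusted p = 0.0180) and PYK10 (-0.72, adjusted p = 0.0212) were lower. These NAA calls ended in 3 and 4 of 12 cases of a left-out library (adjusted p up to 0.0802 and 0.0858). No marker was at 0 in all libraries of a group, and the part of tissue make-up in the differences of the wax genes was not tested.

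The genes most like a member over the 12 libraries, by Pearson's r of log2(RPKM + 1), were AT4G30470 (0.99) and PHI-1 (0.988) for KCS1 and AT1G51580 (0.982) and MMZ3 (0.982) for ADS1. For MYB96 they were AT4G32285 (0.986) and PEPKR1 (0.984), and for CER2 they were NP3 (0.957) and IAA8 (0.952), an Aux/IAA gene. CER1 was most like ADS4 (0.952) and GH9B13 (0.950), LACS2 most like AT1G29310 (0.959) and CENP-C (0.947), and CER3 most like ARF10 (0.947), an auxin response factor, and AT3G50350 (0.934). The lowest likeness was that of KCS6, with AT1G63370 at 0.906 and ST2B at 0.870. The libraries share 4 groups, so a difference between groups raises r for any pair of genes that has it; no 2 members were among each other's nearest genes, since members were left out of the search.

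In the m6A lists few of these genes held a peak. In wild type the authors called peaks with MACS2 in each replicate, and a gene was counted where it held a peak's summit. CER2 held 1 in both mock lists and in the second NAA list, and none in the first NAA list. That is 1 of the 8 tested genes in the first mock list, against 28.6% of all tested genes, 1 in the second, against 30.3%, 0 in the first NAA list, against 22.7%, and 1 in the second, against 27.1%. The summit of the CER2 peak lay at chr4:12662300 in the first mock replicate (TAIR10; peak chr4:12662296-12662538), within 2 bp in the others. Its fold enrichment over input was 1.27 and 1.31 in the mock lists and between these in NAA replicate 2, where the list medians were 1.99 in both mock lists and 1.92 in the NAA list. Between 1.41% and 3.38% of the peaks of its list were as weak or weaker, and at a q-value under 0.01 it was gone from every list. By the TAIR10.1 annotation the summit also lies within AT4G07275, a long noncoding RNA listed at 0 RPKM in all 12 libraries, and these lists name no strand.

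The lists of the other genotypes give 1 set of peaks on exons for each, made with a caller that the sources used here do not name, so they cannot be set against those of wild type. KCS6 held 5 peaks in 35S:FIP37, covering 600 nt, with enrichment scores of the authors between 1.65 and 1.90. It held 7 in 35S:FIP373A, covering 450 nt, with scores between 1.56 and 2.04. Of these, 5 of 5 and 6 of 7 overlapped a peak of the other list by at least 50% of the shorter one. The widest peak in 35S:FIP37 was chr1:25714275-25714574 on the minus strand (TAIR10), centred at 23.0% of the gene from its 5′ end, and in 35S:FIP373A that span held separate peaks at 21.1% and 26.8%. The last peak was the same in both lists, chr1:25712825-25712874, at 83.3% of the gene. Between 8.31% and 33.1% of the peaks of their list had a score at or below those on KCS6, and the list medians were 2.38 and 2.37.

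CER3 held 1 peak in 35S:FIP37, at chr5:23423679-23423728 on the plus strand, 89.5% along the gene, with a score of 3.19 (78.0% of the list were at or below it), and none in 35S:FIP373A. No member held a peak in tmk4-1 with NAA. Thus 2 of the 8 tested genes had a peak in 35S:FIP37, against 12.5% of all tested genes, 1 had one in 35S:FIP373A, against 11.3%, and 0 in tmk4-1, against 6.01%. With 1 list per genotype these differences have no replicate check. KCS1, CER1, LACS2, ADS1, MYB96, CER4 and MAH1 had no peak in any of the 7 lists, which says only that none was called at these depths.

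**Figure D5:**
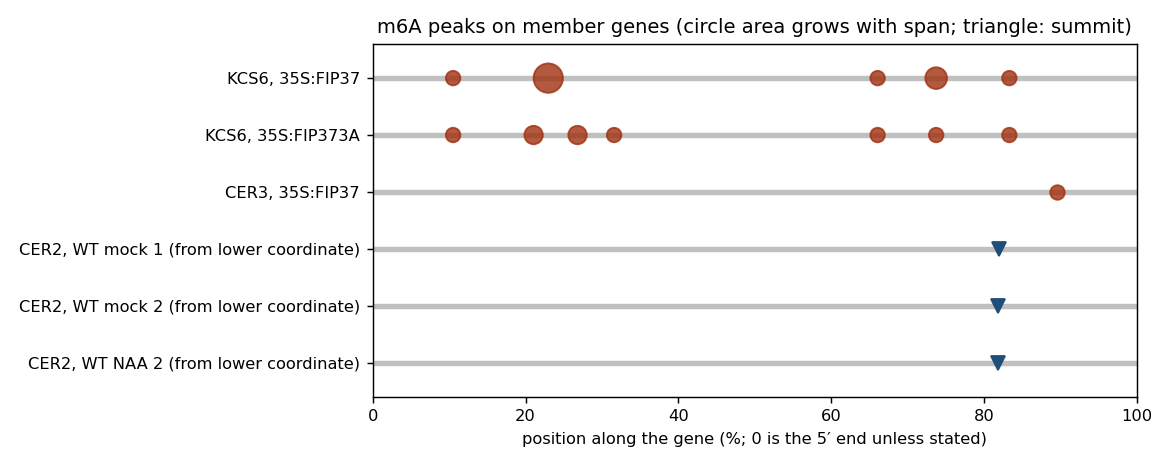
Positions of m6A peaks along KCS6, CER3 and CER2 (x axis, percent of the gene's length by the TAIR10.1 annotation), 1 line per list that held a peak. Circles are peak centres measured from the 5′ end, with area growing with the span. Triangles are MACS2 summits measured from the end with the lower coordinate. The KCS6 peak centres lie between 10.5% and 31.6% and between 66.1% and 83.3%. The peak at 31.6% is in 35S:FIP373A only, and the 35S:FIP37 centres of that first stretch lie between 10.5% and 23.0%.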

How the data were processed

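RNA-seq and m6A-seq libraries were strand-specific and made from poly(A) RNA, per the labels' protocols. The authors deposited RPKM values per gene; columns named for a genotype alone were read as its mock libraries. Per the submitters' processing notes, STAR 2.5.3a was used with the TAIR10 genome; the sources used here do not name a counting tool or its treatment of shared reads. MACS 2.2.6 was run by the authors on each wild-type immunoprecipitate against its input, per the file headers, which list for each peak its fold enrichment, pileup signal, and p-value and q-value as -log10. For the remaining m6A genotypes the authors deposited an enrichment score and a column read from its values as a p-value; that column was not used.

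Tests were run in R 4.3.3 with limma-trend and empirical Bayes (limma 3.58.1) on log2(RPKM + 1), with all 12 libraries in 1 model, a filter at a mean of 1 RPKM, and Benjamini-Hochberg adjustment over all of them; "called" means an adjusted p under 0.05. The fit was tested on simulated data. Python 3.11.15 with pandas 2.3.3, NumPy 2.4.6 and matplotlib 3.10.9 was used for the rest. Pathway genes were named from those called, at most 3 per list and comparison by size of change; SCR, and PDF1 with mock, were named after their values were seen. The members, lists and rules were chosen with earlier results of these data known. The labels name no batch. Other pseudocounts, filters, scalings, designs and left-out libraries were tried. RPKM carries no read totals, so no counting interval is given; the wild-type lists rest on 6420713 to 6714976 immunoprecipitated tags kept. Names come from RefSeq (TAIR10.1), and no sequence was used here.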

Additional observations from a re-analysis of the deposited data

Results flagged for a closer look

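Results of a test of the difference between genotypes are listed here. The NAA effect on ADS1 was 2.17 higher (log2) in fip37 LEC1:FIP37 than in wild type (SE 0.30, adjusted p = 0.00648, limma). ADS1 had a mean of 1.90 RPKM in fip37 LEC1:FIP37 mock. From that level the wild-type change of -1.83 is out of reach on the log2(RPKM + 1) scale. The NAA effect on LTL1 was 1.08 higher (SE 0.19, adjusted p = 0.0206), with levels of 8.40 and 4.995 RPKM in wild-type mock and NAA and of 18.3 and 25.2 RPKM in fip37 LEC1:FIP37. The NAA effect on HTH was 1.05 higher (SE 0.19, adjusted p = 0.0212), with 9.14 and 5.10 RPKM in wild type and 6.84 and 8.66 RPKM in fip37 LEC1:FIP37. The HTH call ended when any wild-type mock library or wild-type NAA replicate 2 was left out, and the LTL1 call when wild-type mock replicate 1 or 3 was; the ADS1 call held in all of these. In each of the 3 genes the mock levels were also called different between genotypes.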

How the results depend on the processing

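With all 12 libraries, 1 tested member was called with NAA in wild type (8.35% of all genes), 2 under median-ratio scaling (MYB96 added; 8.60%), and 4 without wild-type NAA replicate 3 (22.8%) or with replicate 3 of both wild-type groups left out (13.7%; CER3, LACS2 and MYB96 added in both); the range over single left-out libraries was 1 to 4. That range was 0 to 0 for NAA in fip37 LEC1:FIP37, 5 to 6 and 4 to 7 between genotypes with mock and NAA, and 1 to 1 for the difference of the NAA effects. The wild-type m6A count of 1 member went to 0 at a q-value under 0.01 and at a fold enrichment of at least 3.

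Some values changed sign between settings, and those of LACS2 did so over a wide range. With NAA in wild type KCS6 was -0.000297 under quantile normalization and -0.0022 with replicate 3 of both wild-type groups left out, with -0.0344 to 0.0374 over left-out libraries. CER1 was -0.0113 and -0.00303 at pseudocounts of 0.1 and 0.5 and -0.118 with those replicates left out, with -0.119 to 0.105 over left-out libraries, and LACS2 ranged from -0.237 to 0.966. Between genotypes CER3 with mock was 0.0188 under quantile normalization, with -0.234 to 0.0107 over left-out libraries, and KCS6 with NAA ranged from -0.127 to 0.115. For the difference of the NAA effects LACS2 was -0.113 with those replicates left out and ranged from -0.537 to 0.666, KCS1 from -0.276 to 0.0738 and MYB96 from -0.324 to 0.0317. FIP37 with NAA in fip37 LEC1:FIP37 ranged from -0.143 to 0.371. The cause was not tested.

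Same-numbered replicates did not deviate together in every pair (r from -0.103 to 0.397), so the numbers were not taken to pair the libraries. Between wild-type NAA and mock, replicates 1 and 3 were most like their own number (r = 0.279 and 0.296). Replicate 2 was not (r = -0.0458, beside 0.333 with another number). Some pairing may thus be present. With a replicate block the members called were 1, 0, 5, 5 and 1 in the same order of comparisons, as without it, and ADS1 with NAA in wild type had -1.83 (adjusted p = 0.00125).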
